A study of Mus musculus with 12 samples.

Results

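The 9 Krüppel-like factors of endothelium, Klf2, Klf3, Klf4, Klf5, Klf6, Klf7, Klf9, Klf10 and Klf13, are described here in cultured mouse endothelial cells exposed to tumour necrosis factor (TNF). These 9 members were named as a list, and each was followed through the probe sets that carry its symbol in the platform annotation. They make 9 of the 10269 genes tested. All 9 passed the filter on low signals, which kept genes with at least 4 of 12 arrays at 100 or more. The members have 33 probe sets, of which 26 passed. The brightest probe set stands for each gene, and the others serve as a check.

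The study hybridised RNA from cultured endothelial cells of newborn wild-type mice to Affymetrix arrays, 1 array per sample and 4 samples per group. In the tmTNF group the cells stably carried a mutant murine TNF that cannot be cleaved from the membrane, a long exposure whose length is not stated. In the soluble TNF group (sTNF) the cells received 20 ng/ml for 4 h. The control cells were mock-transfected. All groups had the same medium with fetal calf serum, and the labels do not settle whether the sTNF cells had been mock-transfected too. The labels do not name the promoter of the construct, the organ the cells came from or the number of clones, and do not say whether replicates were separate cultures, so the tests see the variation among these 12 samples alone, part or all of which could be technical. Replicate numbers follow the order of deposition and pair nothing.

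Krüppel-like factors are zinc-finger proteins that bind CACCC boxes and related GC-rich DNA, and that activate or repress genes through the partners they recruit. In endothelium Klf2 and Klf4 are induced by laminar flow through the kinases MEK5 and ERK5 and the MEF2 factors. They raise anti-thrombotic and vasoprotective genes such as Nos3 and Thbd and oppose the inflammatory programme that TNF sets off through NF-kB.

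Promoter windows are shown for Klf9, the only member called in any comparison, for Klf3, whose window holds the most CACCC boxes, and for Klf2, whose induction through a MEF2 box is well known. They are the 250 bases before the annotated start, from RefSeq on GRCm38.p6, and 7 of the 9 members had a window. Klf9 lies at chr19:23140976-23141225 and Klf3 at chr5:64803271-64803520, both on the plus strand, with CACCC boxes of either strand (CACCC or GGGTG) in capitals. Klf2 lies at chr8:72318812-72319061 on the plus strand, with its MEF2 box in capitals.
Klf9: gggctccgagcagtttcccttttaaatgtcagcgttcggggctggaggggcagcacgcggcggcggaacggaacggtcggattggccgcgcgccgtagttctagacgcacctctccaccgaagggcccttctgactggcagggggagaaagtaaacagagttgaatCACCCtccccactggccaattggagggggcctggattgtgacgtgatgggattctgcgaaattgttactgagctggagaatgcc
Klf3: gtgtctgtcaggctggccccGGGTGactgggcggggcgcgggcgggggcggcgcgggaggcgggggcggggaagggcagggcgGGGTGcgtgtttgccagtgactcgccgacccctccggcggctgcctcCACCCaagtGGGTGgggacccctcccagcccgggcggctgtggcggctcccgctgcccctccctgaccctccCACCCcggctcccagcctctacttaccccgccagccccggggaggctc
Klf2: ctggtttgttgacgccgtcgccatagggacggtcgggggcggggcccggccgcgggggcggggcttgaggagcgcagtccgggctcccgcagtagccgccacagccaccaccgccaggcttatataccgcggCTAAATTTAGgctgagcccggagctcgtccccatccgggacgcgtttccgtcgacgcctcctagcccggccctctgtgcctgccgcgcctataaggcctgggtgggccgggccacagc
The Klf9 window holds 1 CACCC box and no GC box (GGGCGG), while the Klf3 window holds 5 CACCC boxes and 6 GC boxes. CACCC boxes were found in 52% and GC boxes in 32.7% of all 32851 windows of this length. The MEF2 box of Klf2, at -118 to -109 from the start, reads the same on both strands. Klf2 was the only one of the 7 windows with such a box, which 2.92% of all windows hold. All motifs were searched on both strands. The NF-kB site matched in 0 of the 7 windows, against 3.9% of all windows. A match is a description of letters, not of binding.

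A set of 3 arrays stood apart before any group was compared. The mean log2(signal + 16) of 22 endothelial identity markers was 12.28, 9.55, 12.40 and 9.80 on tmTNF replicates 1 to 4. It was 10.33, 11.47, 11.81 and 10.82 on the sTNF arrays and 11.52, 12.30, 8.94 and 11.97 on the control arrays. All 22 markers passed the filter and 0 of them passed the test in any comparison. Few genes passed at all, 0.195% for tmTNF minus control and 0.039% for sTNF minus control. For tmTNF minus sTNF 0.954% passed as higher and 0.263% as lower. A count of 0 in a short list, here and below, therefore says little about that list. On tmTNF replicates 2 and 4 and control replicate 3, the lowest in this score, the summed signal of 13 mesothelial markers was 18051, 11955 and 15808, against 443 to 4646 on the other arrays. Wt1 and Upk3b, defining genes of mesothelium, stayed under 100 on all arrays. Summed fibroblast markers ran from 1535 to 8674 in tmTNF cells, 3752 to 12260 in sTNF cells and 1593 to 15880 in controls, with Lum and Thy1 under 100 throughout. Other fibroblast genes were bright on some arrays. Col3a1 reached 159 in tmTNF cells, 4119 in sTNF cells and 4547 in controls, and Col1a2 reached 88.2, 3248 and 4009. Of the 6 fibroblast markers tested, 1 was called, for tmTNF minus sTNF, where 0.263% of all genes were called lower. Fbln2, which encodes the matrix protein fibulin 2, averaged 445 ± 412 in tmTNF cells, 4074 ± 793 in sTNF cells and 3364 ± 2060 in controls (SD, n = 4 each). Its log2 fold change was -3.64 ± 0.65 (SE) for tmTNF minus sTNF (adjusted p = 0.0232) and -3.15 ± 0.65 for tmTNF minus control (adjusted p = 0.0842), and tmTNF arrays overlapped neither group. The Fbln2 call ended without tmTNF replicate 2, 3 or 4 or sTNF replicate 1, 2 or 4 (adjusted p = 0.0556 to 0.0959). Rgs5 and Myh11 of mural cells and Prox1 and Pdpn of lymphatic endothelium were also under 100 on all arrays. Other markers were not, and 3 of 11 mural and 3 of 8 lymphatic genes were tested, with 0 called. Lymphatic Lyve1 reached 5612 in tmTNF cells, 4007 in sTNF cells and 6851 in controls. Mural Acta2 was at 101 to 238 in tmTNF cells, 736 to 1669 in sTNF cells and 98.3 to 1043 in controls. Its log2 fold change for tmTNF minus sTNF was -2.81 ± 0.63 (SE, adjusted p = 0.0543). The Y-linked genes Eif2s3y, Kdm5d and Uty were at 219 or more on every tmTNF array and at 39.5 or less on the other 8. The sex of the cells and tmTNF therefore cannot be told apart in either comparison that uses the tmTNF group. In bulk samples, fewer cells of a type and less RNA per cell cannot be told apart.

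Against control cells, neither exposure moved any of the 9 factors past the threshold. With tmTNF, 0 of 9 members passed an adjusted p of 0.05 in limma, where 0.195% of all genes tested did, and 0 had an unadjusted p under 0.05, where 7.56% of all genes did. With sTNF, 0 of 9 passed the adjusted threshold, where 0.039% of genes did. The 5 members Klf2, Klf3, Klf4, Klf9 and Klf10 had lower sTNF signals at an unadjusted p under 0.05, which 7.28% of all genes had. This count of 5 fell to 2 without control replicate 2 or without sTNF replicate 2, and to 3 without control replicate 1, sTNF replicate 1 or sTNF replicate 3. Between tmTNF and sTNF, 1 of 9 members was called, Klf9, higher in tmTNF cells, where 0.954% of genes were called higher. Klf3, Klf4 and Klf9 had an unadjusted p under 0.05 and higher tmTNF signals, which 12.4% of all genes had. The same 3 had every tmTNF array above every sTNF array, as did 10.3% of all genes. The median log2 fold change of the members was -0.03 for tmTNF minus control, -0.68 for sTNF minus control and 0.42 for tmTNF minus sTNF, beside 0.03, -0.05 and 0.08 for all genes. The last 2 comparisons share the sTNF arrays, so they are not independent of each other.

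**Figure D1:**
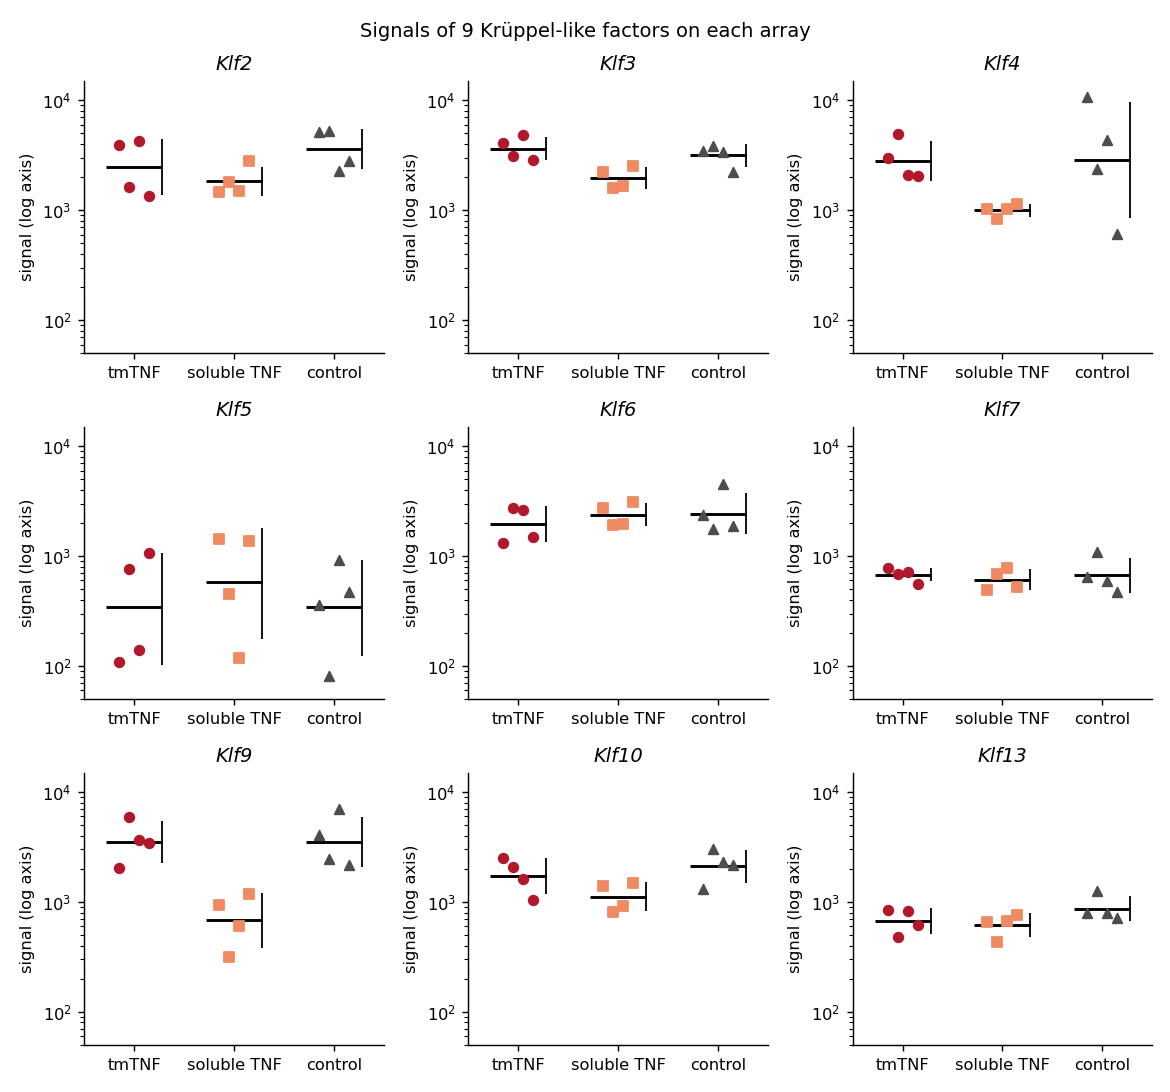
Signal of each of the 9 factors on each array, on a log axis, with tmTNF, soluble TNF and control arrays from left to right. Points are the 4 arrays of a group, horizontal bars the group means of log2(signal + 16) turned back to signals, and vertical bars 1 SD on that scale. The sTNF points of Klf9 lie below all points of both other groups, and Klf5 spreads at least 10.0-fold within every group.

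**Figure D2:**
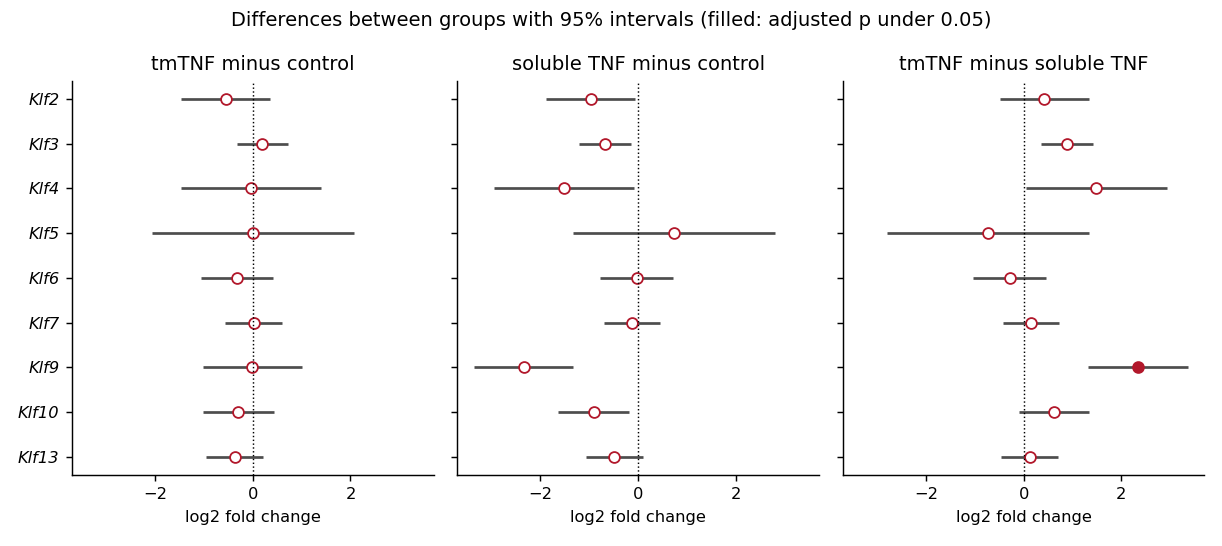
Log2 fold changes of the 9 factors in the 3 comparisons, with 95% intervals from limma as horizontal bars and an adjusted p under 0.05 as a filled point. The only filled point is Klf9 in tmTNF minus soluble TNF, at 2.34. In tmTNF minus control every interval includes 0.

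Klf9, also known as BTEB1, is a factor of GC-rich promoters that glucocorticoids and thyroid hormone induce. Its signals (NCBI gene 16601, probe set 1428288_at) were 2027, 5886, 3640 and 3463 in tmTNF cells. They were 937.2, 318.1, 602.3 and 1172 in sTNF cells and 4092, 2454, 6943 and 2189 in control cells. All 4 sTNF arrays lay below all 8 others, while tmTNF and control arrays overlapped. Klf9 averaged 3754 ± 1594 in tmTNF cells, 757 ± 375 in sTNF cells and 3920 ± 2185 in control cells (SD, n = 4 each).

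Cells with tmTNF had 5.06-fold higher Klf9 than sTNF cells, a log2 fold change of 2.34 ± 0.47 (SE, 95% interval 1.32 to 3.36, limma adjusted p = 0.0368). With sTNF the level was 5.08-fold lower than in controls, at -2.34 ± 0.47 (interval -3.36 to -1.33). The separation of sTNF from control arrays is one that 4.44% of all genes showed, and the difference did not pass adjustment over all genes (adjusted p = 0.156, unadjusted p = 0.000297). For tmTNF minus control the log2 fold change was -0.01 (interval -1.02 to 1.01, adjusted p = 0.999).

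The Klf9 call between tmTNF and sTNF rests on few arrays. Leaving out 1 array at a time kept the log2 fold change between 1.99 and 2.60, but ended the call in 6 of 12 fits. The adjusted p became 0.127, 0.109 and 0.0693 without tmTNF replicates 2, 3 and 4, and 0.0785, 0.111 and 0.0816 without sTNF replicates 1, 2 and 3. Without the 3 arrays low in endothelial markers it was 1.97 ± 0.51 (adjusted p = 0.0834).

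The Klf9 probe sets that were measurable in every group had the same signs in both comparisons with sTNF cells. Of 7 probe sets, 3 reached 100 on all 12 arrays, and in each of these every sTNF array lay below every tmTNF and every control array. Beside 1428288_at, the other two gave log2 fold changes of 2.38 ± 0.44 (1456341_a_at, adjusted p = 0.0263 over all probe sets) and 2.11 ± 0.49 (1428289_at, adjusted p = 0.0636) for tmTNF minus sTNF. For sTNF minus control they gave -2.32 ± 0.44 (adjusted p = 0.133) and -2.07 ± 0.49 (adjusted p = 0.194). A further 2 probe sets passed the filter only through tmTNF and control arrays, since all their sTNF arrays were under 100, and they give only bounds. Their separation from sTNF arrays partly follows from the filter, so they are not counted as agreement. By these, Klf9 was at least 2.20-fold higher in tmTNF than in sTNF cells on 1436763_a_at and at least 1.95-fold higher on 1436952_at. Probe sets of a gene read the same RNA and are no further replicates.

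Summed leukocyte markers and Fbln2 separated tmTNF from sTNF arrays, as Klf9 did, but not sTNF from control arrays. Summed leukocyte markers were 5361 to 7844 in tmTNF cells, 710 to 1250 in sTNF cells and 956 to 19031 in controls, with the pan-leukocyte gene Ptprc and the macrophage genes Adgre1 and Itgam under 100 on all arrays. None of the 4 leukocyte markers tested separated tmTNF from sTNF arrays alone. The sum rested on different genes on different tmTNF arrays. Cd68 led it on replicates 1 and 3 (6728 and 4295), and Cd14 on replicates 2 and 4 (5129 and 4763). Cd68 ran from 63.3 to 6728 in tmTNF cells, 149.7 to 232.3 in sTNF cells and 255.2 to 18210 in controls. In Cd68 alone every sTNF array thus lay below every control array, as in Klf9, a separation that 4.44% of all genes showed. Its log2 fold change for sTNF minus control was -3.09 ± 1.41 (SE, adjusted p = 0.392). The fibroblast marker Fbln2 ran the other way, lower in tmTNF than in sTNF cells. The part of these markers in the Klf9 difference was not tested.

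**Figure D3:**
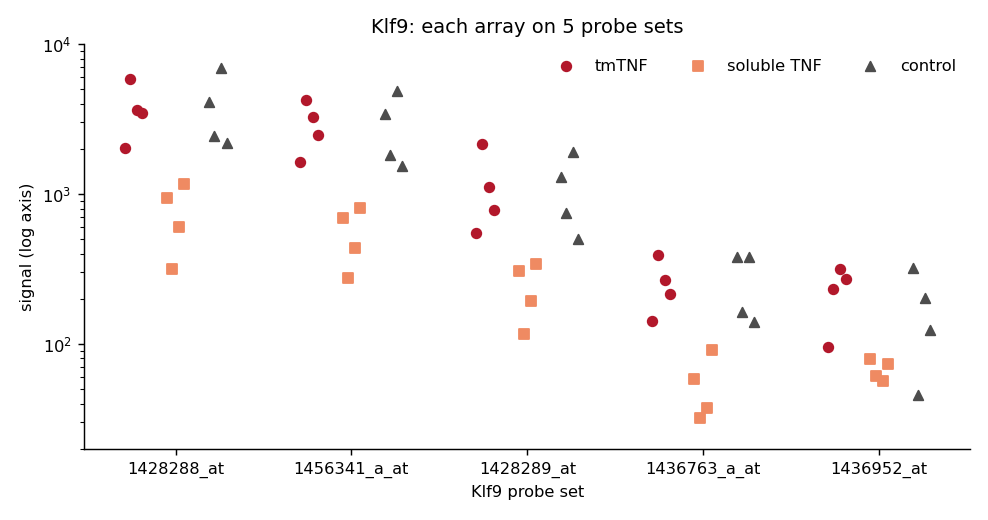
Signals of the 5 Klf9 probe sets that passed the filter, on a log axis, with 1 point per array. In the probe sets at 100 or more on every array, all tmTNF and control points lie above the soluble TNF points. In the 2 probe sets on the right all soluble TNF points are under 100, so only bounds can be read there. Those 2 passed the filter only through the other groups, so their separation partly follows from the filter. Heights differ between probe sets because probes differ, so they are read within a probe set only.

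Klf2 and Klf4, the flow-induced pair, were lower on average in sTNF cells, with wide spread in the other groups. Klf2 (gene 16598, probe set 1448890_at) had signals of 3894, 1629, 4251 and 1359 in tmTNF cells, 1463, 1819, 1510 and 2807 in sTNF cells, and 5150, 5219, 2272 and 2809 in controls. The 3 groups overlapped, and the tmTNF arrays fell into a high and a low pair. Klf2 averaged 2783 ± 1500 in tmTNF cells, 1900 ± 625 in sTNF cells and 3863 ± 1542 in control cells (SD, n = 4 each).

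For sTNF minus control the Klf2 log2 fold change was -0.98 ± 0.42 (SE, interval -1.88 to -0.07, adjusted p = 0.370), and for tmTNF minus control -0.55 ± 0.42 (interval -1.46 to 0.35, adjusted p = 0.868). Between tmTNF and sTNF it was 0.42 ± 0.42 (adjusted p = 0.605). The low tmTNF pair, replicates 2 and 4, and control replicate 3 are the 3 arrays with the lowest endothelial marker score. Without them Klf2 was at -0.05 ± 0.36 in tmTNF minus control, -1.20 ± 0.30 in sTNF minus control (adjusted p = 0.164) and 1.14 ± 0.34 in tmTNF minus sTNF (adjusted p = 0.113). Among sTNF arrays Klf2 did not follow the score, at 1463, 2807, 1819 and 1510 for scores of 10.33, 10.82, 11.47 and 11.81. Control replicate 4, at a score of 11.97, had 2809, and control replicate 1, at 11.52, had 5150. The part of endothelial content in the Klf2 values was not tested beyond this.

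**Figure D4:**
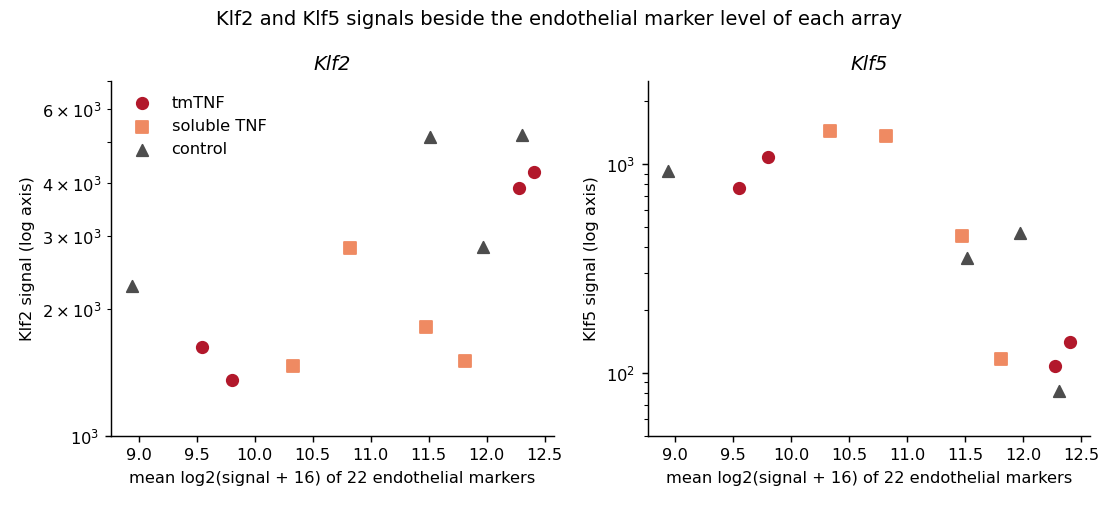
Signals of Klf2 (left) and Klf5 (right), on log axes, against the mean log2(signal + 16) of 22 endothelial markers, 1 point per array. The 5 arrays with the lowest scores, from 8.94 to 10.82, have the 5 highest Klf5 signals, and both tmTNF arrays of low score have less Klf2 than the other tmTNF arrays. Klf2 does not follow the score among soluble TNF arrays, with 2807 at a score of 10.82 and 1510 at 11.81.

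Klf4, known also as a pluripotency factor, had uniform signals in sTNF cells and very uneven ones in controls. Klf4 (gene 16600, probe set 1417394_at) was at 3012, 4922, 2098 and 2032 in tmTNF cells, 1019, 828.9, 1030 and 1132 in sTNF cells, and 10765, 2399, 4389 and 603.3 in controls. Every tmTNF array lay above every sTNF array, while control replicate 4 lay below the sTNF arrays and control replicate 1 above all others. The highest signal was 17.8 times the lowest within controls, 2.42 times within tmTNF and 1.37 times within sTNF.

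The Klf4 log2 fold change was 1.49 ± 0.66 for tmTNF minus sTNF (interval 0.05 to 2.93, adjusted p = 0.239), and the second probe set gave 1.47 ± 0.57 (adjusted p = 0.197). With only those 2 groups in the fit, which leaves out the spread of the controls, the adjusted p was 0.0327. For sTNF minus control it was -1.52 ± 0.66 (interval -2.96 to -0.08, adjusted p = 0.378), and for tmTNF minus control -0.03 ± 0.66 (interval -1.47 to 1.41, adjusted p = 0.997). As for Klf9 and Klf3, the tmTNF and sTNF arrays that do not overlap for Klf4 do not overlap in summed leukocyte markers. They do overlap in each of the 4 leukocyte markers tested. Control replicate 1 was the highest array both in Klf4 and in the leukocyte sum, a sum of 19031 of which Cd68 gave 18210. The part of these markers in the Klf4 values was not tested.

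Klf3, Klf10 and Klf13 are best known as repressors of many of their targets. Klf3, which recruits the corepressor CtBP, had signals (gene 16599, probe set 1454666_at) of 4113, 3104, 4813 and 2857 in tmTNF cells, 2238, 1593, 1659 and 2544 in sTNF cells, and 3432, 3846, 3399 and 2245 in controls. All tmTNF arrays lay above all sTNF arrays, and control replicate 4 was the 1 control array inside the sTNF range. The Klf3 log2 fold change was 0.88 ± 0.24 (SE, n = 4 each) for tmTNF minus sTNF (interval 0.35 to 1.41, adjusted p = 0.0923), -0.68 ± 0.24 for sTNF minus control (interval -1.21 to -0.15, adjusted p = 0.316) and 0.20 ± 0.24 for tmTNF minus control (adjusted p = 0.924).

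Klf3 gave the same signs in the 5 of its 7 probe sets that passed the filter. Its 4 other probe sets that passed the filter had log2 fold changes of 0.48 to 1.03 for tmTNF minus sTNF and of -0.73 to -0.28 for sTNF minus control, none past the threshold. The tmTNF and sTNF arrays that do not overlap for Klf3 do not overlap in summed leukocyte markers either, though they overlap in each leukocyte marker tested. The part of these markers in the Klf3 difference was not tested. No setting tried brought Klf3 past the threshold between tmTNF and sTNF, where its adjusted p ran from 0.0626 to 0.230.

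Klf10, or TIEG1, was first described as an early gene of TGF-beta. Its signals (probe set 1416029_at) were 2500, 2091, 1600 and 1043 in tmTNF cells, 1408, 812.3, 909.9 and 1483 in sTNF cells, and 1311, 3002, 2320 and 2185 in controls. Only control replicate 1 reached into the sTNF range, and the tmTNF arrays overlapped both groups. The log2 fold change was -0.91 ± 0.33 for sTNF minus control (interval -1.63 to -0.19, adjusted p = 0.323), -0.30 ± 0.33 for tmTNF minus control (adjusted p = 0.918) and 0.62 ± 0.33 for tmTNF minus sTNF (interval -0.10 to 1.34, adjusted p = 0.319).

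Klf13 is known from human T cells, where it acts on the gene of the chemokine CCL5. Its signals (gene 50794, probe set 1436316_at) were 842.8, 475.7, 833.8 and 611.8 in tmTNF cells, 660.6, 428.0, 665.6 and 766.4 in sTNF cells, and 793.6, 1269, 793.0 and 718.2 in controls. The groups overlapped, and control replicate 2 was the highest array. The Klf13 log2 fold change was -0.36 ± 0.27 for tmTNF minus control (interval -0.95 to 0.22, adjusted p = 0.863), -0.49 ± 0.27 for sTNF minus control (interval -1.07 to 0.10, adjusted p = 0.473) and 0.12 ± 0.27 for tmTNF minus sTNF (adjusted p = 0.832).

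Klf6 and Klf7 differed least between sTNF and control cells. Klf6, an early response factor of vascular injury, had signals (gene 23849, probe set 1433508_at) of 1318, 2755, 2618 and 1497 in tmTNF cells, 2741, 1910, 1959 and 3116 in sTNF cells, and 2349, 1758, 4510 and 1883 in controls. All groups overlapped, and control replicate 3, the array lowest in endothelial markers, was the highest. Its log2 fold change was -0.32 ± 0.34 for tmTNF minus control (interval -1.07 to 0.42, adjusted p = 0.912), -0.03 ± 0.34 for sTNF minus control (interval -0.78 to 0.71, adjusted p = 0.979) and -0.29 ± 0.34 for tmTNF minus sTNF (adjusted p = 0.670).

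Klf7, best known for its role in developing neurons, had signals (gene 93691, probe set 1449439_at) of 775.1, 682.1, 711.4 and 557.1 in tmTNF cells, 488.6, 692.7, 776.4 and 525.6 in sTNF cells, and 651.9, 1099, 590.0 and 471.7 in controls. On this probe set the groups overlapped closely apart from control replicate 2. The log2 fold change was 0.02 ± 0.26 for tmTNF minus control (interval -0.56 to 0.59, adjusted p = 0.997) and -0.13 ± 0.26 for sTNF minus control (interval -0.71 to 0.45, adjusted p = 0.868). It was 0.15 ± 0.26 for tmTNF minus sTNF (adjusted p = 0.794). Its 3 other probe sets that passed had the opposite sign for sTNF minus control, at 0.06 to 0.15, and none passed the threshold. Among these, 1419354_at had every tmTNF array (543 to 683) above every control array (414 to 531). Its log2 fold change for tmTNF minus control was 0.34 ± 0.20 (limma adjusted p = 0.782 over all probe sets).

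Klf5, a growth-promoting factor of epithelium and smooth muscle, varied more within groups than between them. Its signals (probe set 1451021_a_at) were 107.7, 769.7, 140.8 and 1078 in tmTNF cells, 1436, 451.9, 117.1 and 1362 in sTNF cells, and 355.6, 81.8, 930.0 and 467.7 in controls. Within a group the highest array exceeded the lowest 10.0-fold in tmTNF, 12.3-fold in sTNF and 11.4-fold in controls. The log2 fold change was 0.00 ± 0.95 for tmTNF minus control (interval -2.07 to 2.07, adjusted p = 1.00), 0.73 ± 0.95 for sTNF minus control (interval -1.34 to 2.79, adjusted p = 0.785) and -0.73 ± 0.95 for tmTNF minus sTNF (adjusted p = 0.703). Differences of 4-fold in either direction lie inside the first of these intervals.

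Klf5 signals were highest on arrays low in endothelial markers, in every group. The 5 arrays with the highest Klf5, tmTNF replicates 2 and 4, sTNF replicates 1 and 4 and control replicate 3, were the 5 with the lowest endothelial scores. Their mesothelial marker sums were 18051 and 11955 in tmTNF, 4394 and 4646 in sTNF and 15808 in control cells, and no other array exceeded 1106. Their fibroblast marker sums were 4385 and 8674 in tmTNF, 12090 and 12260 in sTNF and 15880 in control cells. The other arrays were at 5799 or less in that sum. Without the 3 arrays lowest in endothelial markers the Klf5 log2 fold change was -2.09 ± 0.97 for tmTNF minus sTNF (adjusted p = 0.243) and 1.19 ± 0.86 for sTNF minus control (adjusted p = 0.531). The part of these cell markers in the Klf5 spread was not tested.

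The rest of the family was mostly dim. Of 17 other KLF and Sp factors listed, 4 passed the filter, Klf11, Klf16, Sp1 and Sp3, and 0 were called in any comparison. With so few of all genes called, this count says little about them. Klf11, a relative of Klf10, had a log2 fold change of -1.17 ± 0.42 (SE) for sTNF minus control (adjusted p = 0.320) and -0.48 ± 0.42 for tmTNF minus control (adjusted p = 0.893). Sp1, a ubiquitous GC-box activator and the brightest of these by its probe set, was at -0.23 ± 0.18 for tmTNF and -0.30 ± 0.18 for sTNF, both against control. The median of the 4 was -0.33 for tmTNF minus control and -0.28 for sTNF minus control.

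Genes of the MEK5, ERK5 and MEF2 route to Klf2 and Klf4 gave 0 calls among 11 tested of 13 listed, in each comparison. Against control 0.195% of all genes were called with tmTNF and 0.039% with sTNF, so 0 calls says little about the list. The list pools activators with genes that oppose MEF2 factors, so a shared sign gives no direction for the route. All 11 had sTNF minus control values below 0, a sign that 54.2% of all genes had, with a median of -0.47. Among them were the deacetylase genes Hdac4, Hdac5 and Hdac7, which oppose MEF2 factors, at -0.77, -0.86 and -0.13. For tmTNF minus control 9 of 11 were below 0, where 46.8% of genes were, with a median of -0.27. Mef2d, a MEF2 factor, averaged 1194 in tmTNF cells, 637.8 in sTNF cells and 1295 in controls, and its sTNF arrays (492.5 to 768.4) lay below all others (793.3 or more). Its log2 fold change was -0.99 ± 0.25 (SE, n = 4 each) for sTNF minus control (adjusted p = 0.219) and 0.87 ± 0.25 for tmTNF minus sTNF (adjusted p = 0.106). Mef2a, the brightest, was at -0.10 ± 0.28 for tmTNF and -0.38 ± 0.28 for sTNF against control. Map3k3, the kinase upstream of MEK5, was at -0.49 ± 0.27 for tmTNF and -0.46 ± 0.27 for sTNF.

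Corepressors and other KLF partners gave 0 calls among 11 tested of 14 listed, with medians of -0.04 for tmTNF and 0.00 for sTNF against control. That count too is read beside the low share of all genes called. Wwp1, a ubiquitin ligase that acts on Klf2, was at 0.58 ± 0.30 (SE) for tmTNF minus control (adjusted p = 0.715). The histone deacetylase gene Hdac2 was at 0.59 ± 0.22 for sTNF minus control (adjusted p = 0.327). The CtBP gene Ctbp1, the brightest, was at -0.22 ± 0.20 for tmTNF and 0.23 ± 0.20 for sTNF.

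The list of known endothelial targets of Klf2 and Klf4 mixes induced with repressed genes, so its median gives no direction. Log2 fold changes of both signs occurred in each comparison. Of 30 listed, 26 were tested. With tmTNF, 0 were called against control, and the median was -0.15. With sTNF, 1 was called, where 0.039% of all genes were, and the median was -0.06. That gene was Edn1, which encodes the vasoconstrictor endothelin 1 and is repressed by Klf2. It was at least 14.7-fold higher in sTNF cells, with a mean signal of 2153 against 17.3 in controls, all below 100 (adjusted p = 0.0202). Edn1 passed the filter only through exposed arrays. The direction of its call therefore partly follows from the filter and says nothing about the list as a whole. Leaving out control replicate 1 or 2 or sTNF replicate 1, 2 or 3 ended the Edn1 call against control (adjusted p = 0.0664 to 0.125).

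Between tmTNF and sTNF, 2 of the 26 targets were called, both lower in tmTNF cells, where 0.263% of all genes were called lower. Edn1 averaged 145.1 in tmTNF cells and 2153 in sTNF cells (log2 fold change -3.90 ± 0.76, adjusted p = 0.0349). That call ended without tmTNF replicate 1, 2 or 3 or sTNF replicate 1, 2 or 3 (0.0541 to 0.118) and with a pseudocount of 1 (0.0604). Edn1 passed the filter only with its sTNF arrays counted, so this direction too partly follows from the filter. Ccn2, which encodes connective tissue growth factor, averaged 794.0 in tmTNF cells and 7224 in sTNF cells (-3.15 ± 0.50, adjusted p = 0.0126), a call that ended without tmTNF replicate 2 or 3 or sTNF replicate 2 (0.0518 to 0.0558).

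The activated targets Nos3 and Thbd did not pass. Nos3, the endothelial nitric oxide synthase, ranged over 2210 to 19138 in tmTNF cells, 7134 to 9132 in sTNF cells and 2045 to 19272 in controls, at -0.48 ± 0.78 for tmTNF and -0.07 ± 0.78 for sTNF against control. Thbd, the anticoagulant receptor thrombomodulin, was at -0.35 ± 0.40 for tmTNF and -0.41 ± 0.40 for sTNF. Vcam1, an adhesion molecule that Klf2 opposes, was at 3.75 ± 1.17 for tmTNF (adjusted p = 0.366) and 4.87 ± 1.17 for sTNF (adjusted p = 0.209).

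NF-kB-induced genes, read as a check of exposure, were above 0 in 13 of 13 tested for both exposures against control, a sign that 53.2% of all genes had with tmTNF and 45.8% with sTNF. The control arrays of 2 of the 13, Icam1 and Traf1, were all under 100. These 2 passed the filter only through exposed arrays, so their sign adds nothing to the check. With these at their bounds the median log2 fold change was 1.23 for tmTNF and 2.11 for sTNF, against fitted medians of 1.52 and 2.76. Nfkb2, a subunit of NF-kB and itself a target of it, was called higher with sTNF (2.35 ± 0.26, adjusted p = 0.0103), a call that ended on the second probe set (1.64, adjusted p = 0.179) and without sTNF replicate 1 or 3 (0.0664 and 0.0677). For tmTNF minus control it was at 0.87 ± 0.26 (adjusted p = 0.336). It was called lower in tmTNF than in sTNF cells (-1.49 ± 0.26, adjusted p = 0.0232), a call that ended without tmTNF replicate 2 or 3 or any 1 sTNF array (0.0553 to 0.0957), as the mean of probe sets (0.0618) and on the second probe set (0.182). Icam1, an adhesion receptor for leukocytes, was at least 7.14-fold higher in tmTNF cells (adjusted p = 0.00492), a call that ended without tmTNF replicate 4 (0.0541) and without the 3 arrays low in endothelial markers (0.284).

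**Figure D5:**
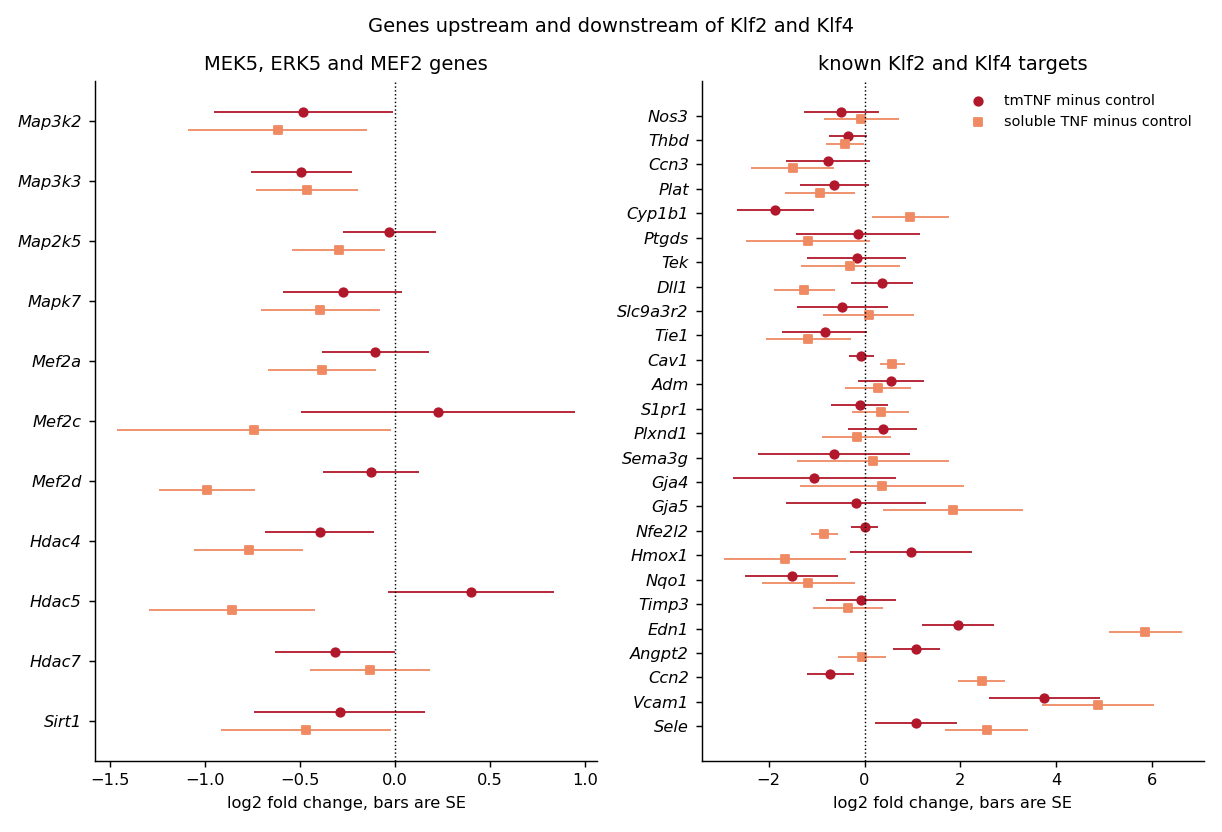
Log2 fold changes against control, with SE bars, of 11 genes of the MEK5, ERK5 and MEF2 route (left) and of 26 known Klf2 and Klf4 targets (right), for tmTNF (circles) and soluble TNF (squares). The left list mixes activators with genes that oppose MEF2 factors, and the right list mixes induced with repressed targets. All 11 soluble TNF points on the left lie below 0 and none passed the test. On the right Edn1 with soluble TNF, at 5.86, is the only called point, and it is drawn as fitted although its control arrays were all under 100. Edn1 passed the filter only through exposed arrays.

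The genes whose pattern over the 12 arrays was most like each member were ranked by Pearson's r of log2(signal + 16) among 9964 named genes, as a description with no test. Arrays share depth, scaling and cell content, and all these r values mix differences between groups with those inside them. Klf9 was most like Wdyhv1 (0.950), Slc35a5 (0.942) and Nat9 (0.935). Klf2 was most like Slc40a1, the iron exporter ferroportin (0.952), Vav3 (0.929) and Rab40c (0.926). For Klf4 they were Prss36 (0.959), Chd2 (0.943) and Ypel5 (0.936), and for Klf5 Sema3c (0.958), Ddx31 (0.942) and Agpat2 (0.933). Klf3 was closest to Limd1 (0.950), Cln3 (0.938) and Hsd17b11 (0.932). Klf10 was closest to Tsc22d4 (0.924), Trim8 (0.898) and Galc (0.887), and Klf13 to Borcs6 (0.919), Chd8 (0.913) and Cln6 (0.895). Klf6 was closest to Srbd1 (0.908), Sec24c (0.902) and Prkacb (0.895), and Klf7 to Saysd1 (0.954), Rev3l (0.944) and Terf2ip (0.944). No member had another member among its 3 closest genes.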

How the data were processed

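RNA of 12 samples was hybridised to 1 array each, with about 5 micrograms of total RNA per the labels. The authors deposited linear signal intensities for every probe set of an array. MAS5 is named in the submitters' processing notes, and its version and settings are not given in the sources used here. Detection calls and scanner files were left aside. The number of arrays limits the precision.

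Signals were scaled so that the 2% trimmed mean of each array, 64 control probe sets aside, was 500, and were analysed as log2(signal + 16). Of 45101 probe sets, 34945 had 1 gene symbol and 932 several. Genes were kept where at least 4 arrays reached 100, with the brightest probe set per gene (10269 genes). The 3 groups were fitted together with limma 3.58.1 in R 4.3.3 (lmFit and trended eBayes). Tests were two-sided with Benjamini-Hochberg adjustment over all genes and a threshold of 0.05. Adjusted p-values in the text come from this fit. Fold changes on the log2(signal + 16) scale understate changes of dim genes. The fit was tested on simulated data. A fold against a group with every array under 100 is a bound, taken against a signal of 100.

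The members, gene lists and alternatives were chosen with earlier results of these data known. All 9 members are named. From other lists the text names called genes, otherwise, for the pathway lists, the largest change against control in each exposure and the brightest gene, and always Nos3, Thbd, Nfkb2, Vcam1 and Edn1. Marker lists without a call are given by their sums, by defining genes under 100 and by some brighter genes, a departure from the rule. Likeness names the 3 closest genes per member. Names and promoter windows came from RefSeq on GRCm38.p6. Alternatives changed the scaling, pseudocount, filter, probe set, samples in the fit and variance model, and left out each array in turn. The omission of 3 arrays was chosen after seeing the data.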

Additional observations from a re-analysis of the deposited data

How the results depend on the processing

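Over all alternatives, 616 values for the members kept their direction and their side of the threshold, 8 lost the threshold, 1 gained it and 41 changed sign, all of them for main log2 fold changes between -0.13 and 0.15. Between tmTNF and sTNF the count of called members was 1. It was 0 with arrays scaled to the same median (Klf9 adjusted p = 0.0513), 0 without the 3 arrays lowest in endothelial markers, 2 with only the 2 groups compared, which added Klf4, and 0 to 1 on leaving out 1 array. The count of members lower in sTNF than in control cells at an unadjusted p under 0.05 was 5, against 2 with array weights and 2 to 5 on leaving out 1 array. The cause was not tested. Klf9 for tmTNF minus sTNF kept its call in 17 of 25 alternatives. Genes called between tmTNF and sTNF numbered 125, against 239 with the same median, 439 with only the 2 groups, 1176 with array weights and 16 to 234 on leaving out 1 array. Between sTNF and control 4 were called, against 2 with the second probe set, 2 with only the 2 groups, 26 without the 3 arrays and 0 to 23 on leaving out 1 array. Between tmTNF and control 20 were called, against 1 without the 3 arrays and 2 to 52 on leaving out 1 array. Scaling to the same median moved the median of all genes to -0.12 for tmTNF minus control and -0.15 for tmTNF minus sTNF, so small differences are read relative to it. No paired analysis was possible because the labels carry no replicate numbers.

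For tmTNF minus control, sign changes were as follows. Klf4 was 0.51 with array weights, 0.00209 without the 3 arrays and -0.78 to 0.60 on leaving out 1 array. Klf5 was -0.12 with quantile normalization, -0.13 with the same median, -0.00193 with a pseudocount of 1, -0.90 without the 3 arrays and -0.62 to 0.51 on leaving out 1. Klf7 was -0.049 with quantile normalization, -0.13 with the same median and -0.15 to 0.25 on leaving out 1. Klf9 was 0.026 with quantile normalization, 0.12 as the mean of probe sets, 0.063 on the second probe set, 0.22 with array weights and -0.25 to 0.32 on leaving out 1. Nos3 was 0.27 without the 3 arrays. Those arrays were set apart by a score that includes Nos3, so this shift partly follows from that choice. Sp1 was 0.16 on the second probe set. Mef2d was 0.038 as the mean of probe sets, 0.14 on the second, 0.10 without the 3 arrays and -0.25 to 0.056 on leaving out 1. Mef2a was 0.30 without the 3 arrays and -0.30 to 0.14 on leaving out 1, and Hdac2 -0.26 to 0.058.

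For sTNF minus control, Klf6 was 0.053 with the same median, 0.24 with array weights, 0.26 without the 3 arrays and -0.19 to 0.26 on leaving out 1. Klf7 was 0.051 as the mean of probe sets, 0.13 on the second and -0.29 to 0.10 on leaving out 1. Nos3 was 0.022 with the same median and -0.74 to 0.33 on leaving out 1. Sp1 was 0.56 on the second probe set. Wwp1 was 0.0017 with quantile normalization, 0.053 with the same median, 0.016 as the mean of probe sets, 0.013 on the second, 0.14 with array weights, 0.17 without the 3 arrays and -0.19 to 0.17 on leaving out 1.

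For tmTNF minus sTNF, Klf7 was -0.083 with the same median. Klf13 was -0.014 with quantile normalization, -0.11 with the same median, -0.019 with array weights and -0.047 to 0.29 on leaving out 1. Nos3 was 1.01 without the 3 arrays and -0.97 to 0.060 on leaving out 1. The value of 1.01 too partly follows from a score that includes Nos3. Thbd was -0.17 with the same median, -0.22 with array weights and -0.21 to 0.35 on leaving out 1, and Vcam1 -1.71 to 0.15. Sp1 was -0.17 with the same median, -0.048 as the mean of probe sets, -0.40 on the second, -0.035 without the 3 arrays and -0.050 to 0.11 on leaving out 1. Map3k3 was 0.094 on the second probe set, 0.015 with array weights, 0.28 without the 3 arrays and -0.14 to 0.19 on leaving out 1.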

Other observations

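Klf15, a Krüppel-like factor outside the 9 followed here, was at 397.7 on tmTNF replicate 2 and at 8.44 or less on the other 11 arrays, so it did not pass the filter. Decorin (Dcn), a matrix proteoglycan of fibroblasts, was at 3277 and 7271 on tmTNF replicates 2 and 4 and at 185.5 or less on the other 10. Aldh1a1, a retinaldehyde dehydrogenase, was at 3840 and 4872 on those arrays, at 5067 on control replicate 3 and at 132.3 or less on the other 9.

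A list of 7 glucocorticoid-linked genes was chosen after the Klf9 values were seen, so it gets no test as a list. Of the 6 tested, 0 were called in any comparison. The median log2 fold change was -0.34 for tmTNF minus control, -0.52 for sTNF minus control and 0.64 for tmTNF minus sTNF. For sTNF minus control Tsc22d3, which encodes the glucocorticoid-induced leucine zipper, was at -2.43 ± 0.68 (SE, limma adjusted p = 0.244), the clock gene Per1 at -1.19 (adjusted p = 0.347) and the kinase gene Sgk1 at 1.19.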
